A study of Homo sapiens with 8 samples.

Results

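Tandem 3′ splice sites 3 nucleotides apart were taken from the alternative 3′ splice site events of U2OS cells, a human osteosarcoma line. An event belonged to the set when the long form of its exon was 3 nucleotides longer than the short form. No measured level entered that choice, but an event is listed only where both of its forms had reads. The whole-cell data held 720 such events among 4916 alternative 3′ splice site events (14.6%), at 662 acceptor pairs of 618 genes. The cytoplasmic data held 619 among 3498 (17.7%), at 592 acceptor pairs of 554 genes. In all, 587 events were listed in both fractions, 133 only in whole cells and 32 only in the cytoplasm, which makes 752 events. All cells received an siRNA at 20 nM for 48 h, directed either at EGFP, a gene these cells do not carry, or at CHERP, a nuclear protein that binds the spliceosome. Poly(A) RNA was sequenced from whole cells and from the cytoplasm, the supernatant of an NP-40 lysis, with 2 libraries for each siRNA and fraction, 8 libraries in all. A single CHERP siRNA was used in these libraries, so an effect of CHERP loss and an off-target effect of that siRNA cannot be told apart.

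An intron ends in the dinucleotide AG, which the U2AF1 subunit of U2AF recognises while U2AF2 binds the pyrimidine tract before it and the U2 snRNP settles on the branch point. Where a second AG follows directly, in the pattern NAGNAG, the spliceosome can cut after either one. Cutting after the upstream AG gives the long form and adds the second triplet to the exon, which inserts an amino acid, exchanges one or adds a stop codon without shifting the frame. CHERP associates with the U2 snRNP, and the comparison asked whether the choice between such close acceptors moved when CHERP was depleted.

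The sequences below are the acceptors on which the following values turn. Each line gives 30 bases of GRCh37 (hg19) in the direction of transcription, with the last 3 bases of the upstream acceptor and the next 3 bases, up to the downstream acceptor, in capitals. MRPL42 at chr12:93862944-93862973, plus strand, was the single event that passed the test for CHERP depletion. PRRC2B at chr9:134357737-134357766, plus strand, had the largest difference upwards among events without overlap that averaged 50 or more reads. FAM118B at chr11:126131299-126131328, plus strand, was higher after CHERP siRNA in both fractions. IGF1R at chr15:99472766-99472795, plus strand, is a known NAGNAG of a growth factor receptor.
MRPL42: gatttttctttatctcttCAGCAGgagtag
PRRC2B: cccattttgtgctctgcaCAGCAGggtttt
FAM118B: atgctgatgtcctctattTAGCAGggatgg
IGF1R: atttcctcctctttgctgCAGCAGgatatg

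The next set shows how the letter before each AG went with the choice of acceptor. RBM17 at chr10:6148083-6148112, plus strand, was cut almost always at the upstream AG, and AURKB at chr17:8110680-8110709, minus strand, almost always at the downstream AG. TIMM44 at chr19:7999118-7999147, minus strand, and ERCC2 at chr19:45871996-45872025, minus strand, would gain a stop codon in the long form.
RBM17: ttatttcctttgttatcaCAGAAGgcgtaa
AURKB: tgccttcctccactttctAAGCAGgcggca
TIMM44: ccctctctgtgtctgtctCAGTAGagcctt
ERCC2: ccctgccccccaactttgGAGTAGgtgatt

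The last set holds acceptors outside the NAGNAG pattern. GNAS at chr20:57478562-57478591, plus strand, has an upstream acceptor that ends in TG. GMFB at chr14:54947669-54947698, minus strand, has no AG at either position, and CNBP at chr3:128890115-128890144, minus strand, has an upstream acceptor that ends in TTG.
GNAS: cttttcttttcaatcccaCTGCAGtgagaa
GMFB: tagtttctttaacttgagAAAAACcttcat
CNBP: tgtttcttttccttattgTTGAAGcctgct

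The reads on alternative 3′ splice site events summed to between 1235612 and 1483802 per whole-cell library and to between 278805 and 344686 per cytoplasmic library. The tandem events took 79683 to 91156 and 23676 to 28880 of them. Reads on the splicing events of CHERP numbered 103 and 77 in the whole-cell EGFP siRNA libraries and 3 and 10 after CHERP siRNA, and 31 and 21 against 3 and 4 in the cytoplasm. In such bulk libraries fewer cells of a type and less RNA per cell cannot be told apart. Of the markers looked up for the osteosarcoma line, VIM and FN1 were well read in whole cells, with 57402 to 80880 reads of VIM in a library. RUNX2, an osteoblast transcription factor, had 16 and 18 reads against 0 and 3 in whole cells, and COL1A1, COL1A2 and SPARC had no listed event. Of the markers of other cell types, PTPRC, CD3E, EPCAM and ALB had no listed event. CDH1, an epithelial cadherin, had 1 read in each whole-cell EGFP siRNA library and 22 and 15 after CHERP siRNA, and its part in the results was not tested. The 2 whole-cell EGFP siRNA libraries differed from each other most in their read distribution over these events, with a chi-square per degree of freedom of 8.65, against 2.44 for whole cells with CHERP siRNA and 1.39 and 1.36 for the cytoplasmic pairs.

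The tandem set was almost wholly NAGNAG. Both acceptors ended in AG in 744 of the 752 events (98.9%), beside 97.8% of events with acceptors 4 to 50 nucleotides apart and 99.9% of those farther apart. CAGCAG was the most frequent hexamer with 296 events (39.4%), followed by TAGCAG with 155 (20.6%), AAGCAG with 84 (11.2%) and CAGAAG with 61 (8.11%). The triplet that the long form adds was CAG in 546 events (72.6%), AAG in 113, TAG in 76 and GAG in 14. Most of the pairs lay in coding sequence (695 events, 92.4%), while 37 lay in a 5′ UTR, 6 in a 3′ UTR and 14 in noncoding transcripts. Both acceptors were annotated exon starts in 743 events. The 20 bases before the upstream triplet held a median of 75% pyrimidines, beside 70% in both wider classes. The introns before the tandem acceptors had a median length of 1507 nucleotides, against 960 for acceptors 4 to 50 nucleotides apart and 843.5 for those over 50 apart. These features were compared as a description only.

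In control cells most listed tandem acceptors had an intermediate level. A pair used at only one position is not listed in any class, which raises the share of intermediate levels in all of them. The level of the long form is its length-corrected share of the reads of both forms, from 0 to 1, and it is summarised here over events that averaged 20 or more reads per library, a depth that 452 whole-cell and 256 cytoplasmic tandem events reached. In whole cells with EGFP siRNA the median level was 0.679, with an interquartile range from 0.370 to 0.892. The long form was the major one in 299 of the 452 events. The level lay between 0.1 and 0.9 in 308 events (68.1%), under 0.1 in 36 and over 0.9 in 108. Among events with acceptors 4 to 50 nucleotides apart, 22.8% lay between 0.1 and 0.9, and 27.9% did among those over 50 apart. The cytoplasm gave nearly the same picture, with a median of 0.681 and 66.4% of the events between 0.1 and 0.9, against 20.8% and 24.4% of the wider classes. The medians of single libraries spread from 0.683 to 0.700 in whole cells and from 0.671 to 0.702 in the cytoplasm, and the libraries of the siRNAs overlapped in both fractions.

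**Figure D1:**
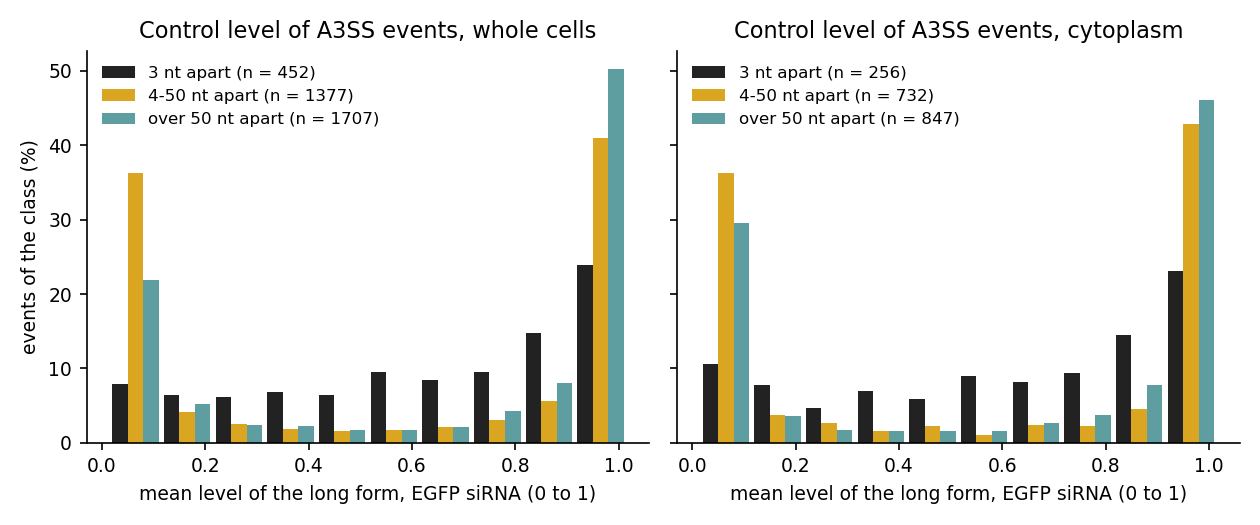
Level of the long form (0 to 1) in control cells for events averaging 20 or more reads per library. Tandem acceptors filled the middle of the scale, with 68.1% of whole-cell events between 0.1 and 0.9, whereas 22.8% and 27.9% of the more widely spaced acceptors lay there.

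The base before each AG went with the level. Where the downstream triplet was AAG and the upstream one CAG, the long form dominated, with a control median of 0.973 over 43 events and an interquartile range from 0.885 to 0.987. TAGAAG was similar, with a median of 0.928 over 20 events. CAGCAG, where both acceptors carry the same triplet, had a median of 0.642 over 158 events, and its events ran from 0.0369 to 1. TAGCAG had a median of 0.689 over 97 events and overlapped CAGCAG widely, with interquartile ranges from 0.486 to 0.870 and from 0.383 to 0.845. An upstream AAG turned the preference before CAG and TAG, as AAGCAG had a median of 0.248 over 48 events and AAGTAG 0.260 over 7. Before AAG it did not, as AAGAAG had a median of 0.672, with the long form major in 9 of 11 events. With GAG as the upstream triplet the long form was mostly minor, with a median of 0.0689 over 10 events, but was major in 2 of them. The 5 GAGCAG events had a median of 0.0443 and ran from 0 to 0.672, and the 1 GAGAAG event had 0.763. With GAG as the downstream triplet the long form was the major one in 9 of 12 events. The medians were 0.995 over 3 CAGGAG and 0.990 over 4 AAGGAG events, which ran from 0.432 to 1, but 0.143 over 2 GAGGAG events.

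The same order was read in the cytoplasm, where the median was 0.924 for CAGAAG, 0.709 for TAGCAG, 0.593 for CAGCAG and 0.148 for AAGCAG. A position weight score of each acceptor was built from 46849 acceptors of the exons listed as skipped-exon events in whole cells. Over 446 whole-cell events the score difference between the 2 positions went with the control level (Spearman rho of 0.459, Pearson r of 0.419). Within CAGCAG alone rho was 0.358 over 158 events. In the cytoplasm rho was 0.392 over 249 events and 0.20 over 95 CAGCAG events. Events share libraries and some share acceptors, so these are descriptions of the sites. The pyrimidine share, the distance to the next AG upstream and the intron length had rho of 0.0178, 0.0460 and 0.0154 with the whole-cell level, while for intron length it was 0.189 within CAGCAG. With CHERP siRNA the medians of the 4 most frequent hexamers stood in the same order, and the median difference between the siRNAs was 0.00687 for CAGCAG, 0.00858 for TAGCAG, -0.00434 for CAGAAG and 0.00160 for AAGCAG.

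Among well-read events the long form was rare where it would add TAG as a stop codon. With TAG as the added triplet, the reading frame decides whether it is read as a stop. In whole cells 4 events with at least 20 reads placed TAG in frame, and their control levels ran from 0.00803 to 0.0406 with a median of 0.0247. In the 39 events that added TAG in another frame, the levels ran from 0.00417 to 0.980 with a median of 0.680, and 3 of them lay under 0.1. ALG8, the lowest of the 39, has the hexamer GAGTAG, as does the in-frame ERCC2. A further 8 events added TAG without a single frame and had a median of 0.838. In the cytoplasm 2 in-frame events had a median of 0.00471 and 23 in another frame a median of 0.697. These genes were named after their values were seen. TIMM44, of the mitochondrial protein import motor, had control levels of 0.0174 and 0.0527, against 0.0129 and 0.0203 after CHERP siRNA. ADAM15, a metalloprotease, had 0.0218 and 0.0594 against 0.0192 and 0.0187, without overlap. ERCC2, a helicase of transcription factor TFIIH, had 0.0288 and 0 against 0.0499 and 0, and both siRNAs overlapped there. MKLN1 stood apart from these, with 0 and 0.0161 against 0.0876 and 0.0478, from 0 and 2 long-form reads against 10 and 6. The siRNA groups of MKLN1 did not overlap, but the difference missed the threshold in the quasi-binomial test (FDR of 0.700). A further in-frame TAG, in ADAMTSL5, averaged 4.25 reads and had levels of 1 and 0.197 against 0.746 and 0.424. In AFF1 a stop codon would arise across the junction with 1 upstream exon, listed only in the cytoplasm at a mean of 14.75 reads, and its levels were 1 and 0.951 against 1 and 0.914.

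GNAS, which encodes the stimulatory G protein alpha subunit, showed that the level at a given acceptor pair differed with the exon before it. Its upstream acceptor ends in TG and its downstream one in AG, and the pair is listed once for each of 2 upstream exons. After the upstream exon at chr20:57470667-57470739, 7843 nucleotides away, the whole-cell levels of the long form were 0.585 and 0.597 in the control and 0.601 and 0.607 after CHERP siRNA. After the exon at chr20:57473996-57474040, 4542 nucleotides away, the same acceptors had levels of 0.111 and 0.104 against 0.111 and 0.137. The 2 upstream exons were thus far apart in every library, and the siRNAs differed far less, although their libraries did not overlap for the farther exon. Cytoplasmic libraries gave 0.569 and 0.580 against 0.626 and 0.611 for the farther exon, and 0.0972 and 0.118 against 0.127 and 0.113 for the nearer one. The cytoplasmic difference between the siRNAs for the farther exon did not pass the quasi-binomial test (FDR of 0.800).

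Other genes were split by the upstream exon as well. In whole cells 19 acceptor pairs had at least 20 reads after each of several upstream exons, with a median span of control levels of 0.106, and for 11 of them every library gave a higher level after one exon than any library did after the other. PAM, a peptide-amidating enzyme, had 0.598 and 0.575 against 0.608 and 0.696 after the exon 8338 nucleotides away and 0.329 and 0.311 against 0.335 and 0.296 after the exon 2847 nucleotides away. Both PAM and the next genes were chosen after their values were seen. For 3 of the 19 pairs, those of EIF4G1 and CHD3 among them, the long-form reads of the records were equal within 5% in every library, so the same reads were counted under both exons. EIF4G1 had 131, 85, 106 and 101 long-form reads under one exon and 131, 85, 106 and 102 under the other, and a level near 1 in such a record does not describe a choice of acceptor. Leaving those 3 out, 9 pairs were apart in this way. Among them IL24 and CALD1 each had a record with neither junction annotated. PCBP2 and NAB1 each had a record whose short-form junction was not annotated. In the cytoplasm 7 pairs were listed, 5 were apart and 0 shared reads within that limit of 5%. LSR was among the 5, although a record with levels of 0.916, 1, 1 and 1 had 34, 38, 31 and 24 long-form reads. The other LSR record had 36, 44, 35 and 28, and whether these were the same reads was not settled.

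**Figure D2:**
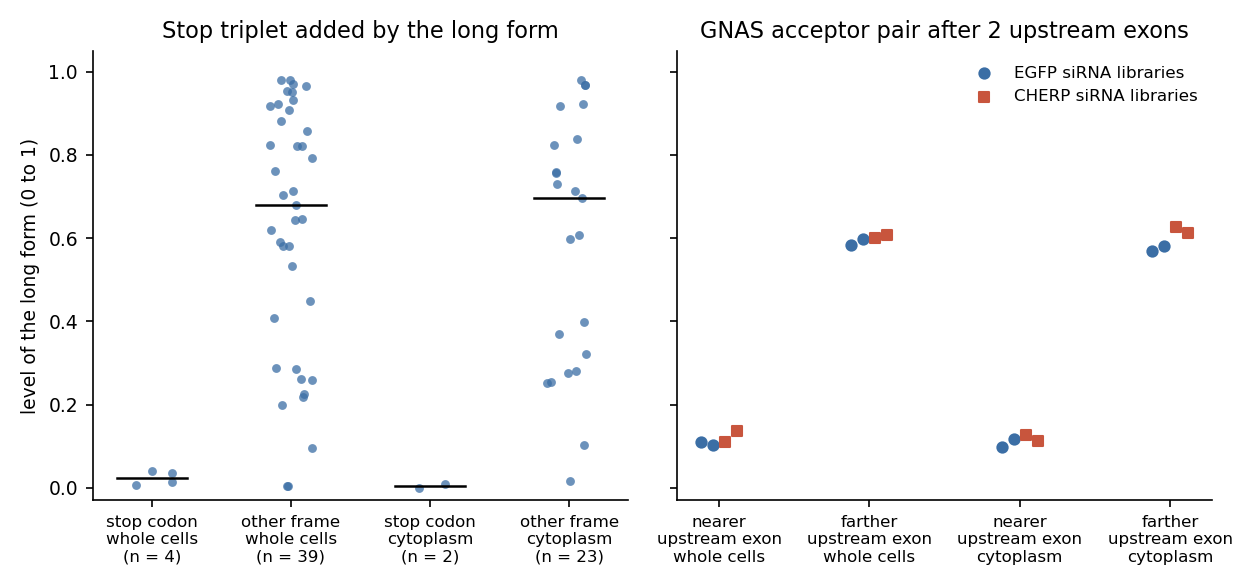
Left, control level of the long form (0 to 1) for events that add TAG, by whether TAG is read as a stop codon, with bars at the medians (0.0247 and 0.680 in whole cells). Right, level of the long form in each library for the GNAS acceptor pair after either upstream exon, which lay between 0.585 and 0.607 for the farther and between 0.104 and 0.137 for the nearer exon in whole cells.

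A single tandem acceptor passed the threshold for CHERP depletion in whole cells. The quasi-binomial test, adjusted over all 4916 alternative 3′ splice site events at an FDR of 0.05, called 1 of the 720 tandem events (0.139%, Wilson 95% interval from 0.0245 to 0.782%), and it called 1.14% of all events. Of the events with acceptors 4 to 50 nucleotides apart it called 15 of 1934 (0.776%), and of those over 50 apart 40 of 2246 (1.78%). Among events averaging 50 or more reads the shares were 0.333%, 1.51% and 3.01% in the same order. The standard errors differed between the classes, with medians of 0.0466, 0.0162 and 0.0132 at that depth, so a difference of a given size was harder to call in the tandem set. At an unadjusted p of 0.05 the tandem set had 24 events (3.33%) and all events 6.08%. Limma on the log2 odds called 3 tandem events and 1.77% of all events. The differences between these classes were not tested. The intervals of shares cover counting error only.

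MRPL42, a subunit of the mitochondrial ribosome, was that event, and its long form fell after CHERP siRNA. Its CAGCAG lies in the 5′ UTR, with acceptors at positions 93862965 and 93862968 of chromosome 12. The control libraries had 151 long-form reads of 426 and 244 of 525, and those with CHERP siRNA had 104 of 400 and 146 of 441. The levels were 0.350 and 0.460 against 0.256 and 0.327. The EGFP siRNA libraries were both higher than the CHERP siRNA libraries, by a gap smaller than the distance within either siRNA. The means were 0.405 ± 0.0777 and 0.291 ± 0.0498 (SD, 2 libraries each), and the difference was -0.113. For the pooled read shares the quasi-binomial model gave a difference of -0.118 with a standard error of 0.0326 (FDR of 0.0361). The dispersion used was shared over events of like read number and was 2.11, whereas the 4 MRPL42 libraries alone gave 8.43. Without the second EGFP siRNA library FDR was 0.921, without the first CHERP siRNA library 0.989, and without the second 0.0513, so the call rested on each of them. Processed copies of MRPL42 elsewhere in the genome could take or lend reads, and the cytoplasm had a mean of 1.5 reads.

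GMFB, a glia maturation factor of the cofilin family, had the next smallest p among the tandem events and was chosen after its values were seen. Its intron is 449 nucleotides long, starts with ATATCCTT and ends in AC at the downstream acceptor, which is the pattern of introns removed by the minor, U12-dependent spliceosome. Among the 5259 introns of these events 12 started with AT, all of them with ATATCC. Its long form had control levels of 0.143 and 0.148, against 0.0799 and 0.0864 after CHERP siRNA. The siRNA groups lay far apart compared with the distance within each. The difference of -0.0620, with a standard error of 0.0195 for the pooled read shares, did not pass the quasi-binomial test (FDR of 0.103). It passed limma on the log2 odds (FDR of 0.00634) and the quasi-binomial test over events with at least 50 reads (FDR of 0.0481), which called 2.58% of those events. In the cytoplasm, with a mean of 31.75 reads, the levels were 0.118 and 0.0291 against 0.0370 and 0.0714 and overlapped.

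**Figure D3:**
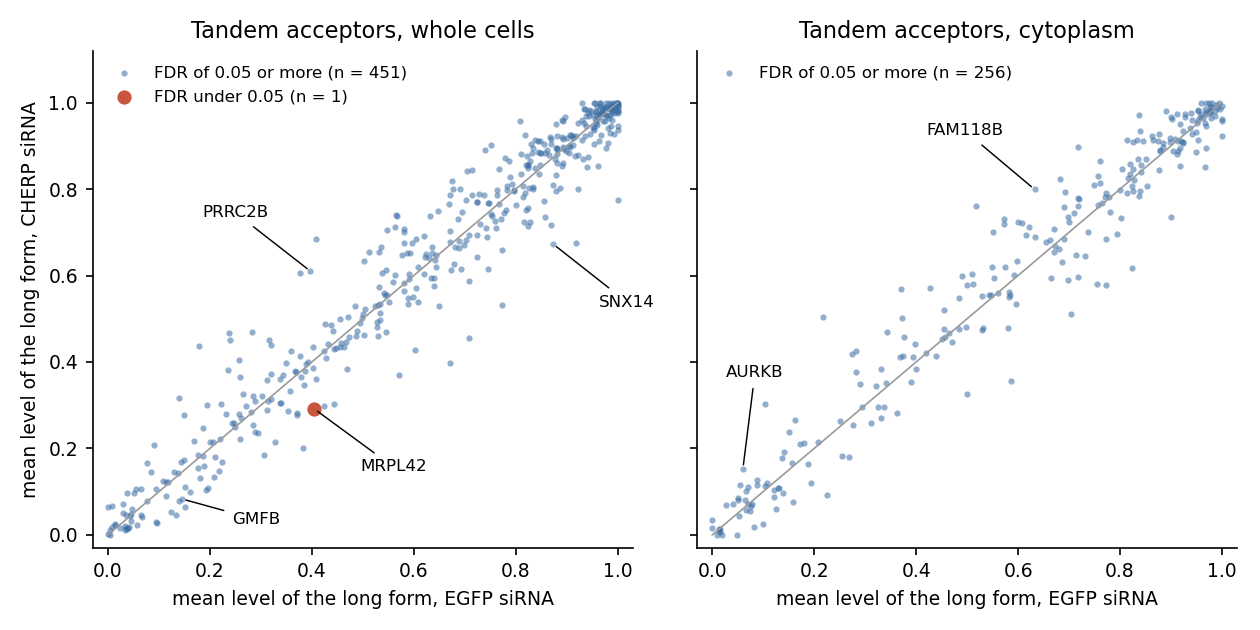
Mean level of the long form (0 to 1) with EGFP siRNA (x axis) and CHERP siRNA (y axis) for each tandem event averaging 20 or more reads, in whole cells and cytoplasm, with the line of equal levels. The points lie along the line, and MRPL42, drawn in red, was the 1 event under an FDR of 0.05.

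Over the whole set the levels scattered around no difference. In whole cells the median difference, CHERP minus EGFP siRNA, was 0.00386 over the 452 well-read events, with quartiles of -0.0272 and 0.0352, beside 0.000161 over all events of that depth. The level was higher after CHERP siRNA in 250 events and lower in 202, beside 1791 and 1753 of all events of that depth, which was not tested. The median size of the tandem difference was 0.0314, beside a median distance between the 2 libraries of one siRNA of 0.0429 for EGFP and 0.0408 for CHERP. A difference between means of 2 libraries is smaller by construction than one between single libraries, so no order is read from these values. The median size of the difference was 0.0134 for acceptors 4 to 50 nucleotides apart and 0.0210 for those over 50 apart. A difference of at least 0.1 was seen in 62 of the 452 events (13.7%), against 7.26% and 13.5% of the wider classes. The siRNA groups did not overlap in 205 of the 720 events (28.5%), of which 115 were higher and 90 lower after CHERP siRNA, and this held for 27.6% of all events.

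The events with the largest differences among those without overlap and with at least 50 reads were named by a rule, 8 in each direction. None of these 16 other than MRPL42 passed the quasi-binomial test. PRRC2B, a proline-rich RNA-associated protein, had the largest value upwards, with levels of 0.408 and 0.386 against 0.552 and 0.668 (difference 0.213, standard error 0.0987, FDR 0.700). FAM118B had 0.527 and 0.566 against 0.728 and 0.685 (difference 0.160), and CCDC88A, the actin-binding protein girdin, 0.719 and 0.690 against 0.847 and 0.837 (difference 0.137). In each of these 3 both whole-cell CHERP siRNA libraries were above both whole-cell EGFP siRNA libraries by more than 0.1. ANKRD17, an ankyrin repeat protein, differed by 0.150, HMBOX1, a telomere-binding homeobox protein, by 0.131, and SEC24B, a subunit of the COPII vesicle coat, by 0.120. C1orf131 and C11orf80 differed by 0.124 and 0.102. ANKRD17 had a second record after another upstream exon, with levels of 0.934 and 0.851 against 0.856 and 0.862, which overlapped.

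In the other direction SNX14, a sorting nexin, had 0.885 and 0.861 against 0.776 and 0.569 (difference -0.200, standard error 0.0772, quasi-binomial FDR 0.332, limma FDR 0.0492). Its CHERP siRNA libraries lay farther from each other than the nearer one lay from the control. CTDSP1, a phosphatase of the RNA polymerase II tail, had 0.398 and 0.487 against 0.360 and 0.246 (difference -0.139). IGF1R had 0.758 and 0.734 against 0.581 and 0.651 (difference -0.130, FDR 0.871 in the quasi-binomial test). APBB2, an adaptor of the amyloid precursor protein, differed by -0.121, RAP1GDS1, an exchange factor for small GTPases, by -0.113, SHKBP1 by -0.108 and ANKRD13A by -0.0848. SHKBP1 had closely spaced control libraries in this record, at 0.961 and 0.962, and 0.837 and 0.871 after CHERP siRNA. Its second record, after another upstream exon, had 0.926 and 1 against 0.905 and 0.915 (difference -0.0527).

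**Figure D4:**
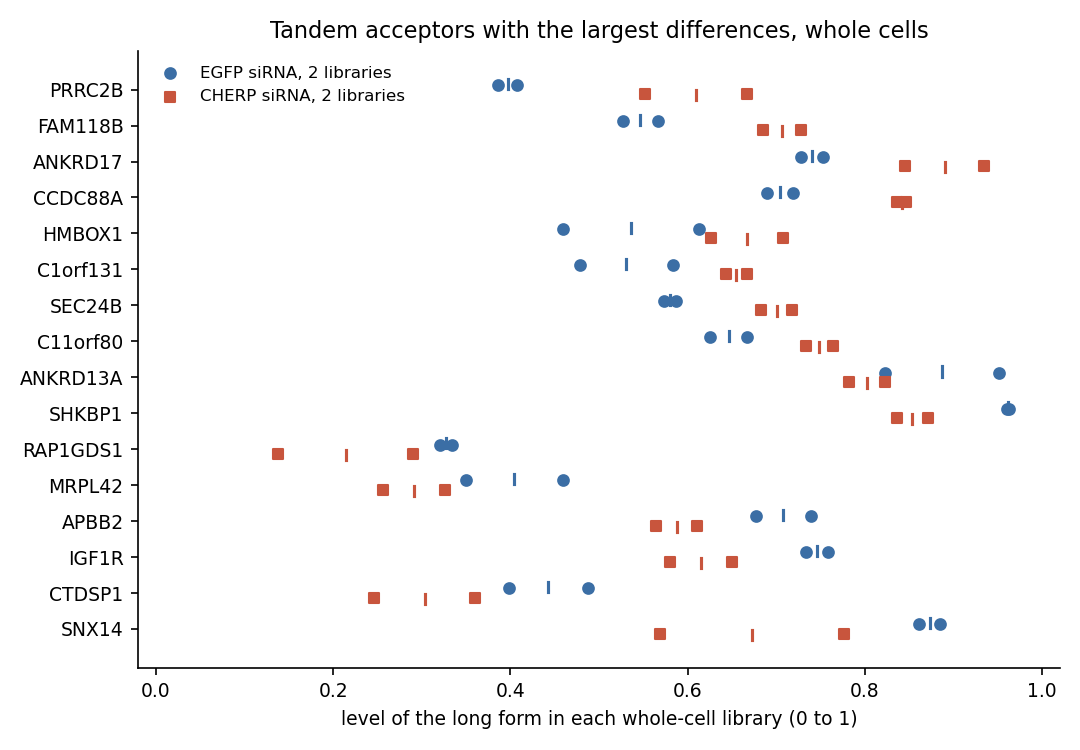
Level of the long form (0 to 1) in each whole-cell library for the 8 events with the largest difference upwards and the 8 downwards, named by gene. PRRC2B (0.408 and 0.386 against 0.552 and 0.668) and SNX14 (0.885 and 0.861 against 0.776 and 0.569) head the 2 directions.

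The most deeply read tandem acceptors with a control level between 0.1 and 0.9 showed how little many of them differed. RBM8A, of the exon junction complex, had 0.884 and 0.911 against 0.891 and 0.886. PCBP2, a poly(C)-binding protein, had 0.819 and 0.810 against 0.791 and 0.823. The siRNA groups overlapped in both. EIF4A2, a translation initiation helicase, and TPRKB, of the tRNA-modifying KEOPS complex, overlapped as well, with 0.244 and 0.249 against 0.287 and 0.231 and with 0.743 and 0.715 against 0.707 and 0.734. SRSF10, a splicing regulator, had 0.741 and 0.733 against 0.763 and 0.808 without overlap. SDCBP, the scaffold protein syntenin, overlapped with 0.762 and 0.741 against 0.739 and 0.748. ASPH, an aspartate hydroxylase, had 0.837 and 0.829 against 0.802 and 0.797. Neither SRSF10 nor ASPH passed the quasi-binomial test (FDR of 0.843 and 0.871).

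Tandem acceptors of the splicing machinery itself were few. Of 55 genes listed for the U2 snRNP and the 3′ splice site, 10 had tandem acceptors, with 13 events in whole cells and 11 in the cytoplasm, and 0 were called in either, with median differences of 0.00523 and 0.00309. The quasi-binomial test gave an unadjusted p under 0.05 for 1 of the 13 whole-cell events, in SF3B2, and for 0 in the cytoplasm, and limma called 0 in either. With 1.14% and 0.372% of all events called in the fractions, and 6.08% and 4.15% at an unadjusted p under 0.05, these counts are near the background and set nothing apart. SF3B2, a U2 snRNP subunit, had 3 such acceptors, all used mainly at the upstream AG. Its CAGAAG had levels of 0.989 and 0.997 against 0.985 and 0.980, without overlap, its AAGCAG 0.902 and 0.906 against 0.899 and 0.898, and its TAGTAG 0.942 and 0.959 against 0.906 and 0.977. RBM17, a splicing factor that binds CHERP, had 0.997 and 0.996 against 0.997 and 1. RBM39, HNRNPC and TRA2B also had levels above 0.9 in every whole-cell library, while PTBP2 had 0.576 and 0.524 against 0.486 and 0.592 after one upstream exon.

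Of 24 cell cycle genes, AURKB, BRCA1 and TTK had tandem acceptors, with 4 events in each fraction and 0 called by the quasi-binomial test. An unadjusted p under 0.05 was found for 0 of them, and limma called 0. At 1.14% and 0.372% of all events called, 4 events are too few to differ from the background. AURKB, the Aurora kinase of the chromosomal passenger complex, had 0.0334 and 0.0516 against 0.0613 and 0.0243 in whole cells, which overlapped. In the cytoplasm it had 0.0705 and 0.05 against 0.153 and 0.153, which did not (quasi-binomial FDR of 0.823). TTK, a spindle checkpoint kinase, had 0.864 and 0.826 against 0.834 and 0.834. BRCA1, a DNA repair protein, had 0.639 and 0.700 against 0.791 and 0.740 at its AAGCAG and 0.708 and 0.741 against 0.754 and 0.784 at its TAGCAG. In the cytoplasm these BRCA1 acceptors differed by -0.00553 and -0.109, opposite in sign to whole cells. With IGF1R, BRCA1 was 1 of the 2 genes with a listed event among 5 genes known for tandem acceptors, and 0 of their 3 events were called in either fraction. The counts at an unadjusted p under 0.05 and by limma were also 0, and the same limit holds for 3 events.

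In the cytoplasm the quasi-binomial test called 0 of the 619 tandem events, which allows a share of up to 0.617% (Wilson upper bound at 95%), and it called 0.372% of all 3498 events. An unadjusted p under 0.05 was found for 13 tandem events (2.10%), beside 4.15% of all events. Limma called 0 tandem events, beside 0.286% of all, with 44 tandem events and 9.18% of all at an unadjusted p under 0.05. The median difference over the 256 well-read events was 0.00920, with 151 higher and 105 lower after CHERP siRNA. Over all 1843 events of that depth it was 0.00115, with 970 higher and 871 lower, and the contrast was not tested. The median size of the difference in the tandem events was 0.0344, and single libraries of one siRNA lay 0.0505 and 0.0459 apart. The siRNA groups did not overlap in 164 of 619 events (26.5%), 87 of them higher, and in 26.7% of all events. PCBP2 had levels of 0.879 and 0.874 against 0.842 and 0.845, a small difference with closely spaced libraries (quasi-binomial FDR of 0.823).

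The 2 fractions had nearly the same control levels. Over the 240 events with at least 20 reads in both, the difference cytoplasm minus whole cells had a median of -0.00616, and 208 events lay within 0.1. The control levels of the fractions had a Spearman rho of 0.970 and a Pearson r of 0.979 across these events, which share their sequence. The event farthest from 0, named after its value was seen, was in LAT, an adaptor of T cell receptor signalling, at -0.227. The differences between the siRNAs showed no such relation, with a rho of -0.0572 and an r of -0.0093 over the same events. Over the well-read events of each fraction their median size was 0.0314 and 0.0344, while single libraries of one siRNA lay 0.0408 to 0.0505 apart. With differences that small, the rho cannot decide whether an effect was shared. The fractions also differed in read length and depth. Of 587 events in both fractions, 50 (8.52%) were without overlap of the siRNA groups in whole cells and also in the cytoplasm, beside 10.6% of all 3155 events listed in both, while 174 and 160 were so in the single fractions. Of the 50, 16 were higher and 13 lower after CHERP siRNA in both, while 14 were higher in whole cells and lower in the cytoplasm and 7 the reverse.

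FAM118B was among those higher in both, with 0.627 and 0.638 against 0.742 and 0.856 in the cytoplasm. SEC24B was another, with 0.562 and 0.490 against 0.658 and 0.627 at a mean of 11.5 reads. PRRC2B overlapped in the cytoplasm, with 0.370 and 0.599 against 0.490 and 0.461, and so did IGF1R with 0.645 and 0.793 against 0.805 and 0.748. APBB2 was lower in whole cells and higher in the cytoplasm, where it had 0.516 and 0.616 against 0.658 and 0.871. A model of siRNA, fraction and their interaction tested 3155 events, called 0 (0%) and so called 0 of the 587 tandem events. An unadjusted interaction p under 0.05 was found for 19 tandem events (3.24%) and for 3.26% of all. The smallest belonged to EML3, named after its value was seen (quasi-binomial interaction FDR of 0.820).

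**Figure D5:**
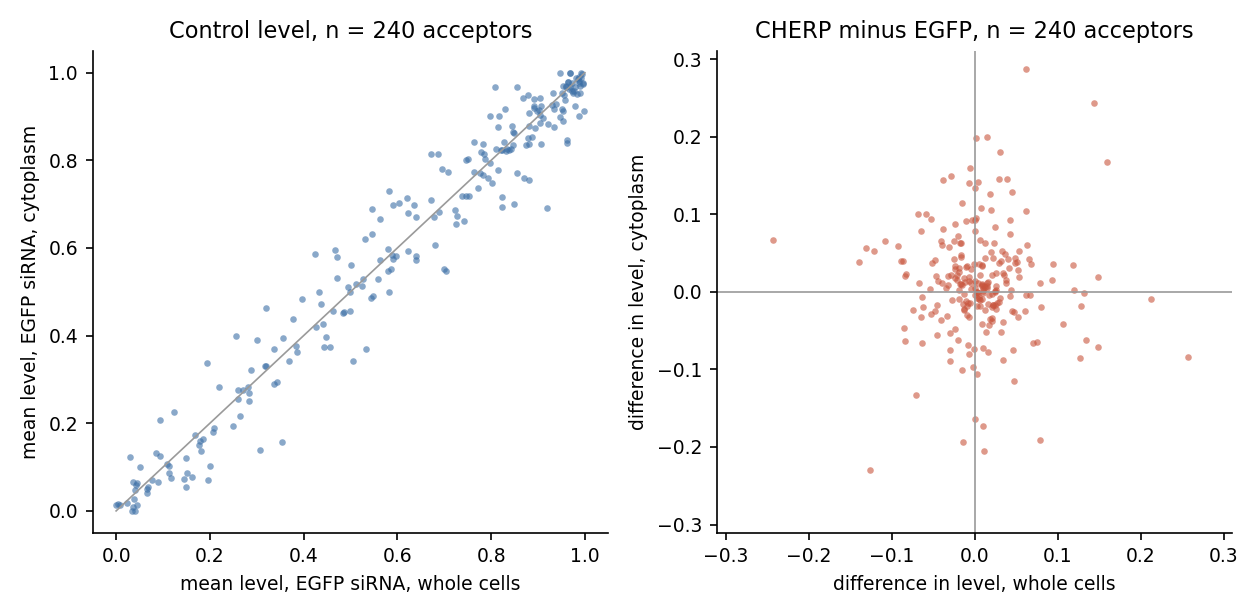
Tandem events averaging 20 or more reads in both fractions (240 events). Left, control level of the long form in whole cells and in the cytoplasm, which lie along the line of equal levels. Right, the difference CHERP minus EGFP siRNA in each fraction, which showed no common direction (Spearman rho of -0.0572).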

How the data were processed

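Reads of the long and the short form were taken as the authors deposited them, as whole counts from rMATS for each alternative 3′ splice site event, with reads on the target counted as well as junction reads. Per the labels, reads were aligned with STAR 2.5.2b, and RSEM 1.2.25 is also named. The rMATS version is not given in the sources used here. A cell of the table holds the counts of both libraries of an siRNA without a replicate number, so libraries are called first and second in the order of the cell. The study's methods call both libraries of a group biological replicates, without saying whether they were separate cultures. In the main quasi-binomial fits the p-values rest on a spread between libraries that is shared over events of like read number. The spread of a single event does not enter them. The deposited p-values, FDRs and level differences, and 20 columns of per-library levels, were not used.

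The level was computed from reads divided by the effective length of each form. Differences between siRNAs were tested with a quasi-binomial model in R 4.3.3 with a dispersion moderated by limma 3.58.1 over all events, where the prior took all the weight, with a floor of 1 and Benjamini-Hochberg adjustment over the whole table of each fraction. That model compares the pooled read shares of the siRNAs without length correction, and the standard errors belong to those shares. The differences given beside them are between mean levels unless stated. The scripts were tested on simulated data. Python 3.11.15, numpy 2.4.6, pandas 2.3.3, scipy 1.17.1, pysam 0.24.0, statsmodels 0.14.6 and matplotlib 3.10.9 were used. Alternatives changed the read minimum, dispersion, test, records per acceptor pair, level and libraries. Sequences came from GRCh37, and exon starts and frames from GENCODE 44 lifted to that build. The acceptor score used 20 intron and 3 exon bases.

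Events named were those with FDR under 0.05, the 8 largest differences each way without overlap and with at least 50 reads, the 10 most-read events with a control level of 0.1 to 0.9, and those of the gene lists; others are marked. Members and lists were chosen with earlier results of these data known. Some events that the rule names are not reported here.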

Additional observations from a re-analysis of the deposited data

How the results depend on the processing

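The count of tandem events called in whole cells, 1 as reported, was 0 with a dispersion from events whose rarer form had 10 or more reads, 3 with limma (GMFB, MRPL42 and SNX14; 1.77% of all events), 2 when 50 or more reads were required (2.58% of all such events), and 0 to 1 with a library left out. It stayed 0 in the cytoplasm and for the interaction under every alternative run. MRPL42 had an FDR of 0.549 with the rarer-form dispersion, and its difference ran from -0.168 to -0.0585 with a library left out. The median difference ran from 0.00312 to 0.00502 in whole cells and from 0.00360 to 0.0103 in the cytoplasm with a library left out. The median control level was 0.711 in whole cells with at least 50 reads, and 0.683 to 0.694 with an EGFP siRNA library left out. In the cytoplasm it was 0.686 with at least 10 reads, 0.672 with at least 50, 0.690 without length correction and 0.671 to 0.674 with a library left out. With a library left out, the sign of the difference changed for 12 of 43 named events in whole cells and 16 of 40 in the cytoplasm. No paired analysis was possible because the counts carry no replicate number. With 2 libraries per siRNA the median standard error of a difference in pooled read share was 0.0620 in whole cells, with a lower quartile of 0.0330.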

Other observations

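CNBP, a zinc finger protein that binds single-stranded nucleic acid, was cut after TTG in whole cells with control levels of 0.272 and 0.270 against 0.306 and 0.288 after CHERP siRNA, and another acceptor 3 nucleotides farther upstream had 0.112 and 0.0236 against 0.0522 and 0.0291. PCID2, whose downstream acceptor ends in ATG, was cut at the upstream CAG with levels of 0.966 and 0.962 against 0.964 and 0.972. These genes were chosen after their values were seen.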
